A study of Mus musculus with 44 samples.

Results

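The transcripts described here are those of 9 cyclin genes in two-cell mouse embryos, the cyclins of the A type (Ccna1, Ccna2), B type (Ccnb1, Ccnb2), D type (Ccnd1, Ccnd2, Ccnd3) and E type (Ccne1, Ccne2). They were taken by gene name with no threshold on their values, though with earlier results of these data known, and are 9 of the 35269 entries in the table of all genes. RNA-seq was performed on 44 single embryos collected from natural matings, on a C57Bl/6 background, to ask whether loss of maternal or zygotic Dppa2 and Dppa4, a tandem pair of genes for DNA-binding proteins, altered transcription at the stage when the embryonic genome is activated. The WT group held 14 Dppa2/4+/+ embryos of control females and wild-type males. The HET1 group held 15 Dppa2/4+/- embryos of conditional knockout (cKO) females and wild-type males. Crosses of cKO females with heterozygous males gave 5 Dppa2/4+/- embryos, called HET2, and 10 Dppa2/4-/- embryos, called HOM. In the cKO females both genes had been removed in growing oocytes by Cre under the Zp3 promoter, so HET1, HET2 and HOM embryos all lacked the maternal gene products and differed from WT embryos in their mothers as well as in their own genotype. Each cross was set up as 2 matings, giving 6 litters: WT embryos came as 10 and 4, HET1 as 7 and 8, HET2 as 4 and 1, and HOM as 3 and 7 from mating 1 and mating 2. Only HET2 and HOM embryos shared litters, so for the other comparisons the group and the litter cannot be told apart.

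Cyclins are the regulatory subunits of cyclin-dependent kinases. D-type cyclins bind Cdk4 and Cdk6 and carry growth signals into G1 phase, E-type cyclins bind Cdk2 at entry into S phase, cyclin A2 binds Cdk2 and then Cdk1 through S and G2 phase, and B-type cyclins bind Cdk1 and drive mitosis. Cyclin A1 is best known from male meiosis. The first divisions of the mouse embryo start with cyclin messages and proteins left by the oocyte, and transcription from the embryonic genome takes over during the two-cell stage.

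The embryos gave between 247667 and 3163026 reads, and WT embryos (median 1770010 reads) were sequenced more deeply than HET1 embryos (median 528166). The values are log2 RPM, that is, reads of a gene scaled to the reads of its library. A gene without reads has a value that depends on depth, so all values were raised to the highest such value, 1.86 log2 RPM, called the floor below. Dppa2 and Dppa4 matched the labels: Dppa2 was at 8.46 ± 0.55 log2 RPM in WT (SD, n = 14), 6.47 ± 1.02 in HET1 (n = 15), 6.42 ± 1.54 in HET2 (n = 5) and 1.89 ± 0.06 in HOM (n = 10), and Dppa4 was at 7.13, 5.50, 5.20 and 1.88. The authors had sorted HET2 from HOM embryos by these transcripts, so for those groups this is no independent check. The oocyte-deposited genes and the genes typical of the two-cell stage were present in every litter (at least 6 of 7 and 4 of 8 markers with reads in each embryo). Of markers of other cells, those of sperm, blood and cumulus or granulosa cells were at or near 0, with at most 39 reads of any of these 16 genes in an embryo, whereas the oviduct gene Ovgp1 had up to 1597 reads in WT embryos. WT embryo 11, of mating 2, stood apart, with a median correlation to the other embryos of 0.552 (0.612 to 0.771 in the rest) and the fewest genes with reads, 9169. Results that rest on it are given with and without it.

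Promoter sequences of 5 of the 9 genes (Ccna1, Ccnb1, Ccnb2, Ccnd3 and Ccne1) were matched in RefSeq (GRCm38.p6), from 250 bases before the transcription start to 50 bases after it. Those of Ccnb1, Ccnb2 and Ccne1 are printed because these transcripts had reads in all 44 embryos. Capitals mark CCAAT, the core of the box bound by the factor NF-Y, and TTTGAA or TTCGAA, the core of the cell cycle genes homology region (CHR) found in promoters of genes of G2 phase and mitosis, both searched on either strand with no overlap between them. All lie on the minus strand, and Ccnb1 covers chr13:100786437-100786736, Ccnb2 chr9:70421505-70421804 and Ccne1 chr7:38107441-38107740.
Ccnb1: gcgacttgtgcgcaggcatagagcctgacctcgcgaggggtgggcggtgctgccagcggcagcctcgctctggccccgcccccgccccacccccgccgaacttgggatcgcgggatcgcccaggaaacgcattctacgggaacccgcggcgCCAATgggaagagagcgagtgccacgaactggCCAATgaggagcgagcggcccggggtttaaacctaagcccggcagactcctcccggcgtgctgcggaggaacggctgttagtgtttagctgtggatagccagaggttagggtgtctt
Ccnb2: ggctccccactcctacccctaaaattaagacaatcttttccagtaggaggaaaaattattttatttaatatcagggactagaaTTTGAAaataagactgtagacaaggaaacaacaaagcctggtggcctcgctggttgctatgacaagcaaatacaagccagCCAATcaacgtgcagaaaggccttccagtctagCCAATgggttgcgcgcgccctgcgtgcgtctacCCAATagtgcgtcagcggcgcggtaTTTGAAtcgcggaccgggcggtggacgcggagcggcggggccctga
Ccne1: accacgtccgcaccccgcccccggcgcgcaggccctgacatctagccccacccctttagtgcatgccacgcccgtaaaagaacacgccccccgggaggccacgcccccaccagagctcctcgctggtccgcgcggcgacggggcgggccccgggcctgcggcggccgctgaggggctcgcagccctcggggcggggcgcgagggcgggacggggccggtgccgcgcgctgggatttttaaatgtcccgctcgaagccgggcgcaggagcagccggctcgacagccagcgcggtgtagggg

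The Ccnb2 window held 3 CCAAT boxes and 2 CHR cores, the Ccnb1 window 2 CCAAT boxes and 0 CHR cores, and the Ccne1 window neither. Among 32851 promoter windows of this length, 37.4% held at least 1 CCAAT, 11.7% at least 2 and 3.37% at least 3, while 19.2% held at least 1 CHR core and 2.54% at least 2. The window of Ccna1, whose transcript was not detected, held 1 CCAAT box. A match of letters is a description of these windows and says nothing about binding in the embryo.

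Ccnb1 and Ccna2 were the most abundant cyclin transcripts of the two-cell embryo, followed by Ccne1. Divided by the merged exon length of each gene, Ccnb1 was at 178 ± 53.3 RPM per kb (mean ± SD over 44 embryos), Ccna2 at 155 ± 30.6, Ccne1 at 79.4 ± 36.7, Ccnb2 at 26.9 ± 15.2, Ccne2 at 19.4 ± 12.1, Ccnd3 at 2.59 ± 2.68, Ccnd1 at 0.718 ± 0.969 and Ccnd2 at 0.196 ± 0.550. Ccna2 was above Ccne1 in all 44 embryos, Ccne1 above Ccnb2 in 41, and Ccne2 above Ccnd3 in 41. Neighbours in the order that did not separate beyond their spread were Ccnb1 and Ccna2, with Ccnb1 higher in 30 of 44 embryos, Ccnb2 and Ccne2, with Ccnb2 higher in 27, Ccnd3 and Ccnd1, with Ccnd3 higher in 38, and Ccnd1 and Ccnd2, with Ccnd1 higher in 28. As shares of the summed RPM per kb of the 9 cyclins, the B type made up a median of 43.6% (33.6% to 57.7%), the A type 32.7%, the E type 21.9% and the D type 0.608%. Each group had the types in this order by its median share. The order of single cyclins was not the same in every group: in WT embryos Ccne2, at 23.6 RPM per kb, was above Ccnb2, at 22.0, in mean and in 8 of 14 embryos, and Ccna2 and Ccnb1 had means of 162 and 162. Without division by length, Ccne2 also lay above Ccnb2 over the 44 embryos, at a mean of 5.74 against 5.08 log2 RPM. The merged exons of a gene need not equal the transcript expressed, and the shares by type depend on them as well.

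**Figure D1:**
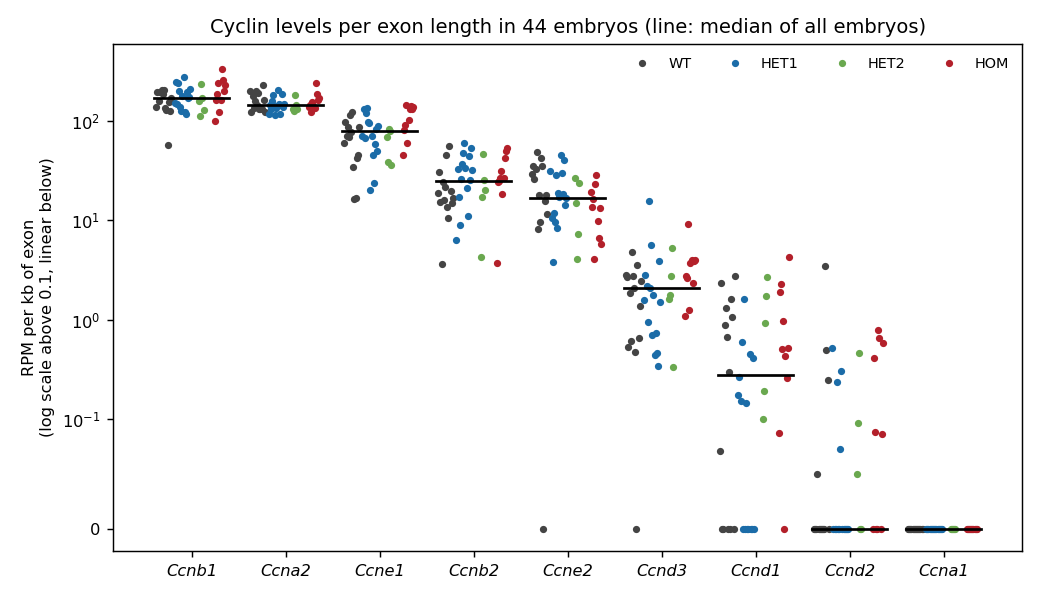
RPM per kb of exon (vertical axis, logarithmic above 0.1 and linear below) of each cyclin in each of 44 embryos, coloured by group, with a line at the median of all embryos. Ccnb1 and Ccna2 lie highest, the D-type cyclins spread down to 0, and Ccna1 is at 0 in every embryo.

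In none of the 4 comparisons of groups did a cyclin pass the test (limma, Benjamini-Hochberg adjusted over 13338 genes, threshold 0.05). Between HET1 and WT embryos, 0 of the 8 cyclins tested were called, beside 6.51% of all genes, and 0 had an unadjusted p under 0.05. The 868 genes behind this share depended on the fit, with 0 called with log2 depth as a covariate, with litter as a random effect or with litter means, 5 without HET1 mating 2, 136 without WT mating 1 and 2563 without HET1 mating 1, and 0 cyclins were called in any of these. Between HET2 and WT, 0 of 8 were called beside 0.0375% of all genes, with 0 at an unadjusted p under 0.05. With 1 HET2 embryo left out, this share of all genes ran from 0.0075% to 0.427%. Between HOM and WT, 0 of 8 were called beside 0.0450%, with 1 cyclin, Ccne1, under an unadjusted 0.05, as were 16.5% of all genes. The share of all genes called there was 0.99% without WT mating 1 and 0.03% without WT mating 2. Between HOM embryos and their HET2 littermates, fitted with a term for litter, 0 of 8 were called beside 0.0150%, with 0 under an unadjusted 0.05. The voom fit on reads recovered from the log2 values also called 0 in each. The median difference over the 8 cyclins was 0.01, -0.03, 0.23 and 0.07 on the log2 scale in these 4 comparisons, beside 0.10, -0.01, 0.17 and 0.18 over all genes tested. With the WT embryos shared by the first 3 comparisons, their values are not independent of each other. Nothing in the labels says how far embryos of a litter differ in age, and p-values measure the spread between single embryos.

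**Figure D2:**
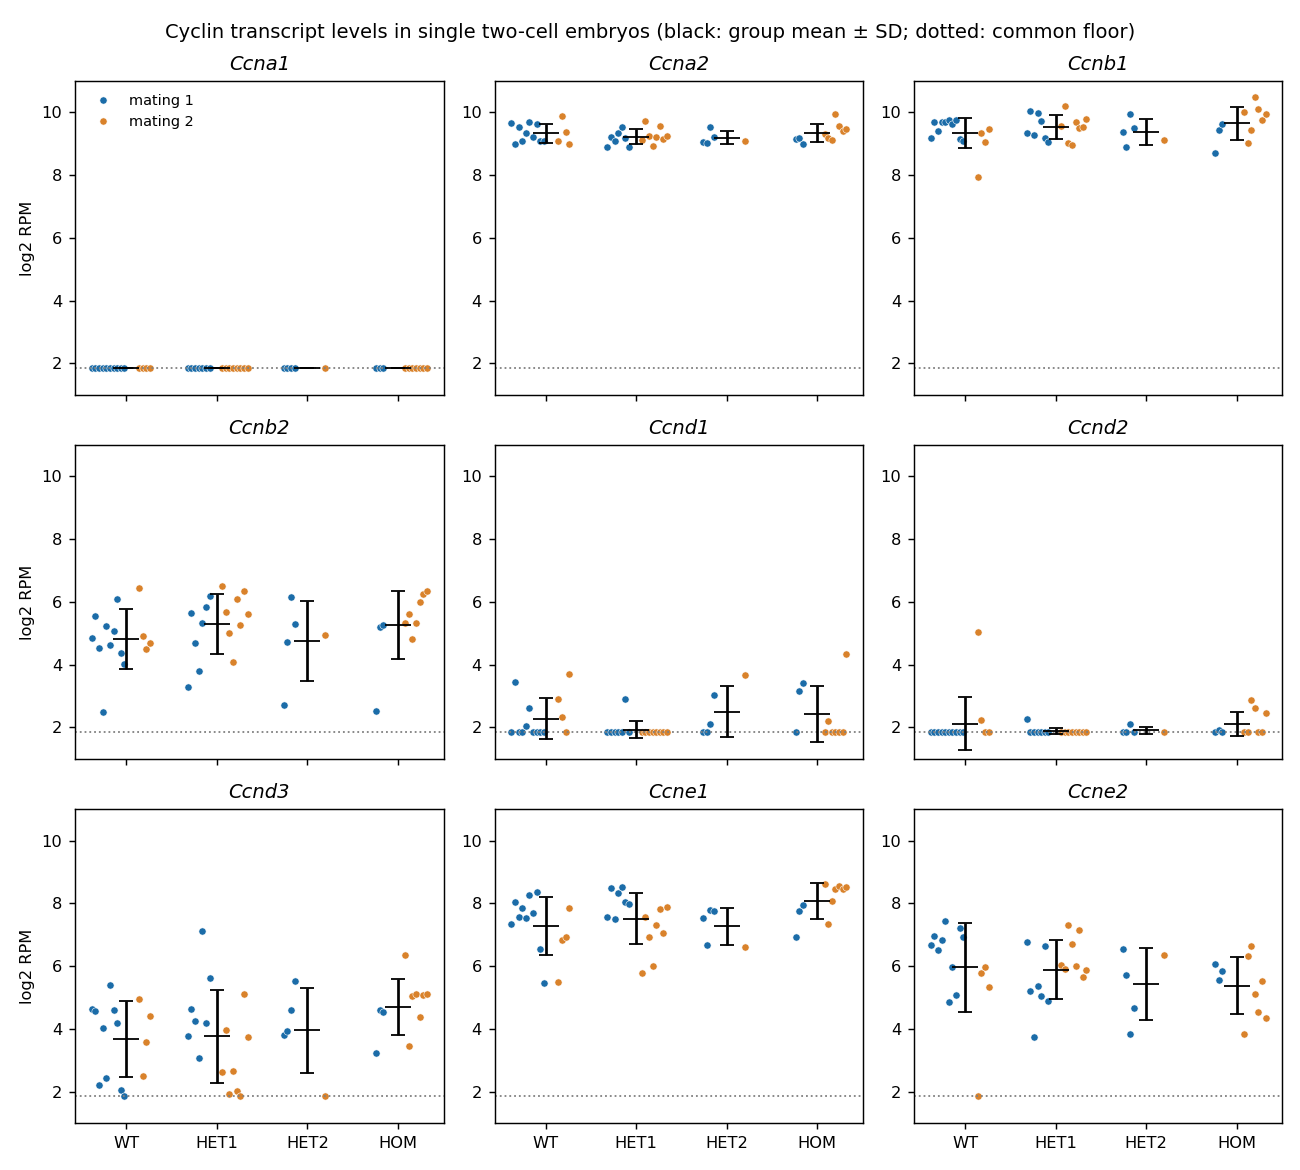
Log2 RPM (vertical axis, values raised to the dotted floor) of each cyclin in WT, HET1, HET2 and HOM embryos, with points coloured by mating and black bars for the group mean ± SD. Ccna2 lies in a narrow band near 9 log2 RPM in every group, and Ccnb1 runs from 7.94 to 10.48. Ccnb2, Ccnd3 and Ccne2 spread widely within groups, and Ccnd1 and Ccnd2 sit mostly on the floor.

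Among the A-type cyclins, Ccna2 was the steadiest transcript of the family and Ccna1 was not detected. Ccna2 (chr3:36564865-36572150, minus strand) had 146 to 2817 reads per embryo. Its levels were 8.98, 9.28 and 9.88 log2 RPM (lowest, median, highest) in WT, 8.90, 9.20 and 9.72 in HET1 and 8.98, 9.26 and 9.96 in HOM, and 9.03, 9.07, 9.09, 9.22 and 9.53 in the 5 HET2 embryos. The 4 groups overlapped over nearly their whole range. HOM embryos differed from WT by -0.00 on the log2 scale (95% interval -0.31 to 0.30, adjusted p = 0.994), HET1 by -0.11 (-0.38 to 0.16, adjusted p = 0.672) and HET2 by -0.15 (-0.53 to 0.23, adjusted p = 0.856). Exons of Ccna2 share 510 bases, 12.5% of their length, with Exosc9 on the other strand, and the quantification did not use strand. Ccna2 and Exosc9 had a Pearson correlation of 0.21 across the 44 embryos.

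Ccna1 (chr3:55045469-55055501, minus strand) had 0 reads in all 44 embryos. Over the 54739682 reads of all embryos a count of 0 allows up to 3 reads, or 0.0548 RPM, and in single embryos the limit ran from 0.949 RPM in the deepest to 12.1 RPM in the shallowest library. This limit covers counting error only.

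Both B-type cyclins were present in every embryo, with Ccnb1 far above Ccnb2. Ccnb1 (chr13:100778650-100786570, minus strand) lay at 7.94, 9.44 and 9.77 log2 RPM (lowest, median, highest) in WT, 8.95, 9.53 and 10.22 in HET1 and 8.72, 9.68 and 10.48 in HOM, and at 8.89, 9.11, 9.38, 9.51 and 9.96 in HET2. The lowest value of all was that of WT embryo 11, and 4 HOM embryos, all of mating 2, were above every WT embryo. HOM embryos were 0.30 higher than WT on the log2 scale (95% interval -0.09 to 0.70, adjusted p = 0.438), and without WT embryo 11 the difference was 0.19 (adjusted p = 0.618). Re-centring every embryo on its median turned it to -0.034, and leaving out the cKO x HET embryos of mating 2 to -0.090. HET1 embryos differed from WT by 0.18 (-0.18 to 0.54, adjusted p = 0.593), and by 0.07 without WT embryo 11 (adjusted p = 0.849).

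Ccnb2 (chr9:70407692-70421547, minus strand) had 5 to 148 reads per embryo. Its levels were 2.48, 4.78 and 6.43 log2 RPM in WT, 3.28, 5.62 and 6.52 in HET1 and 2.52, 5.34 and 6.36 in HOM, and 2.71, 4.71, 4.94, 5.28 and 6.16 in HET2. Every group ran from below 3.3 to above 6.1, so the spread between embryos of a group exceeded any difference between groups. The differences from WT were 0.48 ± 0.37 (SE) in HET1 and 0.46 ± 0.42 in HOM (adjusted p = 0.479 and 0.597), the latter -0.49 without the cKO x HET embryos of mating 2, and HOM embryos differed from HET2 littermates by -0.01 ± 0.60, or by -0.39 without the 1 HET2 embryo of mating 2. Ccnb1 was above Ccnb2 in each of the 44 embryos, by a mean of 3.81 to 4.82 on the log2 RPM scale over the 6 litters.

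Of the E-type cyclins, Ccne1 had the largest group difference among the cyclins read in all embryos. Ccne1 (chr7:38097984-38107534, minus strand) lay at 5.46, 7.54 and 8.38 log2 RPM (lowest, median, highest) in WT, 5.76, 7.58 and 8.51 in HET1 and 6.92, 8.27 and 8.61 in HOM, and at 6.60, 6.68, 7.53, 7.74 and 7.79 in HET2. Of the 10 HOM embryos, 5 were above the highest WT embryo, all from mating 2, and the HOM embryos of mating 1, at 6.92, 7.77 and 7.93, lay within the WT range. HOM embryos were 0.80 higher than WT (SE 0.31, 95% interval 0.17 to 1.42), which did not pass correction over all genes (adjusted p = 0.185), and the difference was 0.27 without the cKO x HET embryos of mating 2. Within litters the difference between HOM and HET2 was 0.64 (-0.21 to 1.49, adjusted p = 0.931), and 0.10 without the 1 HET2 embryo of mating 2. HET2 differed from WT by 0.00 (-0.78 to 0.79), and by -0.14 without WT embryo 11. HET1 embryos differed from WT by 0.24 (-0.32 to 0.80, adjusted p = 0.654), by 0.11 without WT embryo 11 (adjusted p = 0.861) and by -0.23 without HET1 mating 1. The mean was 8.05 in HET1 mating 1 and 7.04 in HET1 mating 2, beside 7.27 in WT.

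Ccne2 (chr4:11191351-11204779, plus strand) was lower than Ccne1 in most embryos and varied more. Its levels were 1.86, 6.24 and 7.43 log2 RPM in WT, 3.74, 5.90 and 7.31 in HET1 and 3.84, 5.54 and 6.64 in HOM, and 3.84, 4.67, 5.71, 6.36 and 6.54 in HET2. The single embryo without a read of Ccne2 was WT embryo 11. HOM embryos were -0.58 from WT (-1.46 to 0.31, adjusted p = 0.522). The difference was -0.89 without WT embryo 11 (adjusted p = 0.245) and -0.13 without the cKO x HET embryos of mating 2. Without WT mating 1 it was 0.65 (adjusted p = 0.635), on a WT side of 4 embryos that included WT embryo 11 at the floor. The reads of Ccne2 need care, because 609 bases, 17.4% of its exon length, are shared with Ints8, a subunit gene of the Integrator complex on the other strand. Without strand, reads from this stretch cannot be assigned to either gene. Ints8 (0 to 445 reads) was the gene most like Ccne2 across the embryos, with a Pearson correlation of 0.77 and rank 1 of 7569 genes, and 0.69 without WT embryo 11, which had 0 reads of both.

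Across the 44 embryos the Pearson correlation between Ccne1 and Ccne2 was -0.18 and the Spearman correlation -0.43, and without WT embryo 11, which was low in both, they were -0.49 and -0.53. Ccne1 minus Ccne2, taken within each embryo on the log2 RPM scale, had a median of 1.05 in WT (-1.48 to 3.63), 1.41 in HET1 (-0.71 to 3.75), 0.99 in HET2 and 2.56 in HOM (0.84 to 4.76). Ccne1 was the higher in 12 of 14 WT, 12 of 15 HET1, 5 of 5 HET2 and 10 of 10 HOM embryos. By litter the mean ran from 0.71 in HET1 mating 2 to 2.74 in cKO x HET mating 2.

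The D-type cyclins were scarce. Ccnd3 (chr17:47505051-47599691, plus strand) was the most abundant of them, with 0 to 74 reads per embryo and reads in 43 of 44. Its levels were 1.86, 4.10 and 5.40 log2 RPM in WT, 1.86, 3.78 and 7.10 in HET1 and 3.24, 4.81 and 6.34 in HOM, and 1.86, 3.81, 3.94, 4.61 and 5.53 in HET2. Of the WT embryos, 4 of mating 1, between 1.86 and 2.43, and 1 of mating 2 lay below the lowest HOM embryo. HOM embryos differed from WT by 1.02 (SE 0.52, 95% interval -0.02 to 2.06, adjusted p = 0.312), and by 0.46 without the cKO x HET embryos of mating 2 (adjusted p = 0.887). The difference between HOM and HET2 littermates, 0.81 (-0.67 to 2.28), became -0.35 without the 1 HET2 embryo of mating 2, which had 5 reads. Exons of Ccnd3 share 361 bases, 4.11% of their length, with Bysl on the other strand, and the correlation of the pair was 0.58.

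Ccnd1 (chr7:144929931-144939925, minus strand) had 0 to 22 reads per embryo, with at least 3 reads in 16 of 44. At least 3 reads were seen in 7 of 14 WT, 1 of 15 HET1, 3 of 5 HET2 and 5 of 10 HOM embryos. HET1 libraries were the shallowest, and the difference of HET1 from WT was -0.35 ± 0.23 (SE, adjusted p = 0.384), or -0.57 with log2 depth as a covariate (adjusted p = 0.366). The gene shares 1100 bases, 23.4% of its exon length, with LTO1 on the other strand, whose median was 32.5 reads.

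Ccnd2 (chr6:127125162-127152193, minus strand) had at least 3 reads in 9 embryos and 0 reads in 27. The 2 highest counts were in WT mating 2, where the 4 embryos had 35, 14, 5 and 0 reads, beside 0 or 1 read in each of the 10 WT embryos of mating 1. The same 4 embryos, in the same order, had 1597, 630, 322 and 41 reads of Ovgp1, which encodes the glycoprotein secreted by oviduct epithelium. In the 10 WT embryos of mating 1 Ovgp1 had 0 to 84 reads. The other oviduct markers, Pax8 and Foxj1, had at most 13 and 5 reads in any embryo. Whether RNA from the oviduct had a part in the Ccnd2 reads was not tested. Outside WT, Ccnd2 had at most 6 reads.

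**Figure D3:**
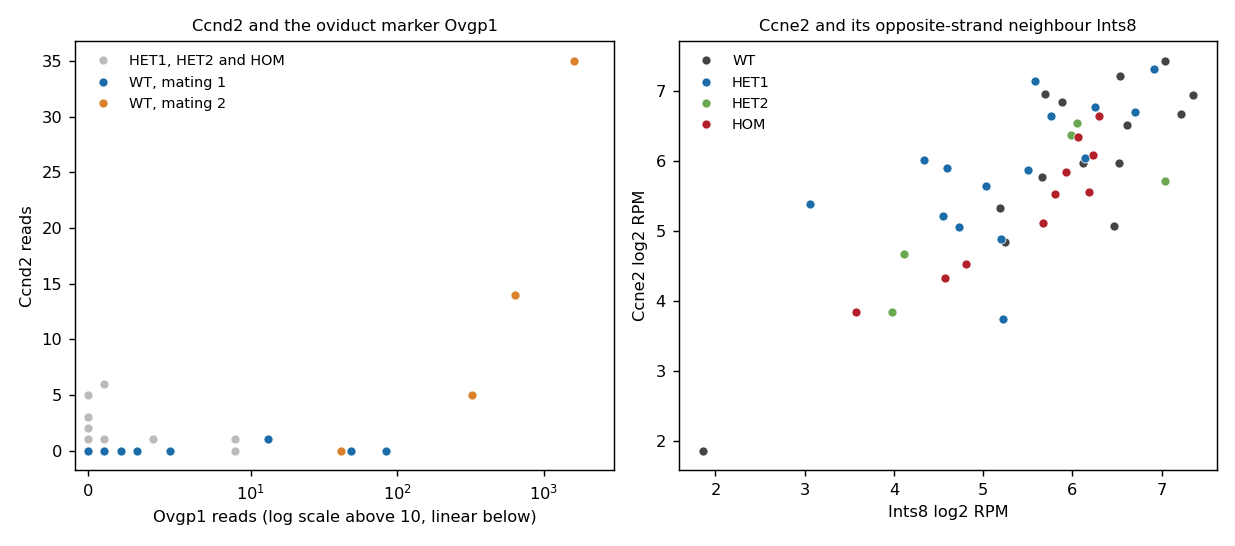
Left, Ccnd2 reads (vertical) against Ovgp1 reads (horizontal, logarithmic above 10) in each embryo, coloured by WT mating. Right, log2 RPM of Ccne2 (vertical) against Ints8 (horizontal), coloured by group. In WT mating 2 the embryos with 35, 14 and 5 Ccnd2 reads are those with the most Ovgp1 reads, and WT embryo 11 is at the floor for both Ccne2 and Ints8.

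**Figure D4:**
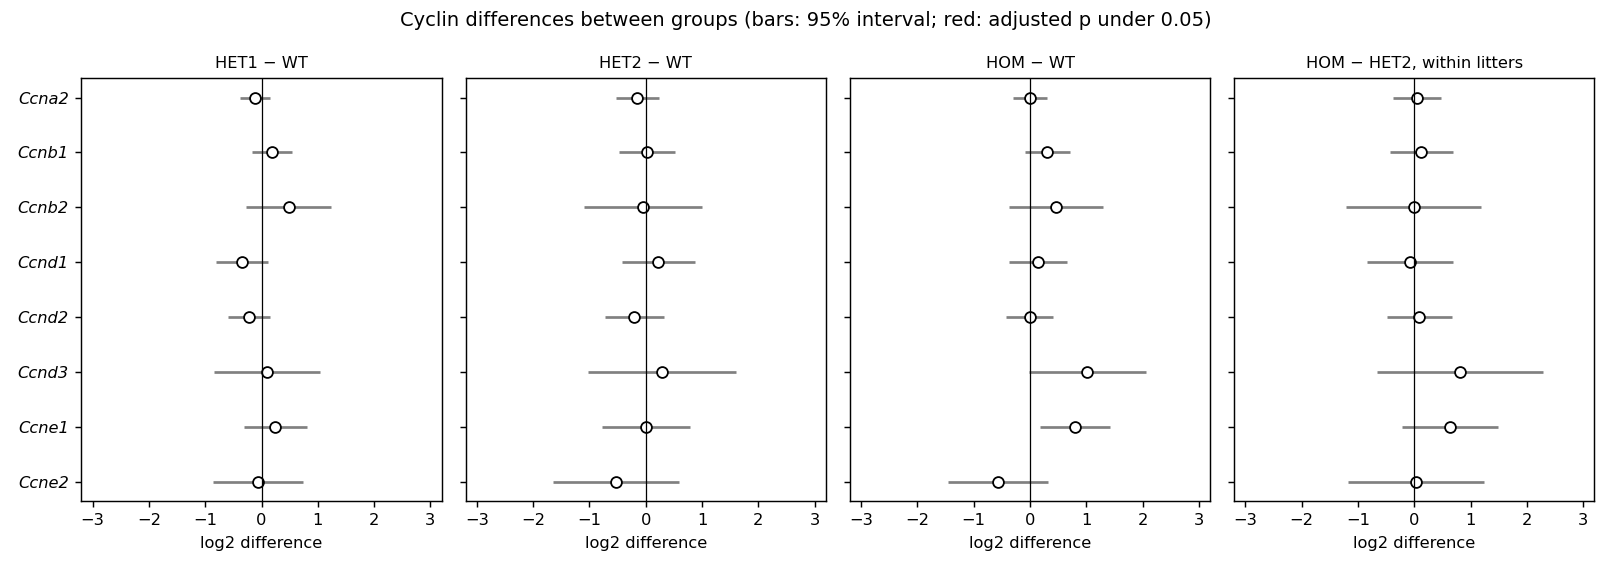
Log2 differences (horizontal axis) of the 8 tested cyclins in each comparison of groups, with 95% intervals, and red points where the adjusted p was under 0.05. No point is red, and the interval of Ccne1 in HOM minus WT, 0.17 to 1.42, is the only one of these that excludes 0.

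Between litters of the same cross, Ccne1 and Ccnd3 passed the test, both in the HET1 litters, where they were lower in mating 2. Ccne1 had 7.49, 7.56, 7.98, 8.03, 8.34, 8.47 and 8.51 log2 RPM in the 7 embryos of HET1 mating 1, and 5.76, 7.17 and 7.89 (lowest, median, highest) in the 8 of mating 2. The ranges overlapped, with 5 of 8 embryos of mating 2 below every embryo of mating 1. Mating 2 was 1.02 lower (2.02-fold, SE 0.35, adjusted p = 0.0314). Ccnd3 had 3.06, 4.25 and 7.10 in mating 1 and 1.86, 2.64 and 5.11 in mating 2, and was 1.67 lower (3.19-fold, SE 0.61, adjusted p = 0.0412), on 1 to 18 reads per embryo in mating 2. These were 2 of 8 cyclins tested, beside 22.0% of all genes called between these litters, so the share of cyclins was near the background. The median of all genes between these litters was -0.18, and after re-centring of each embryo on its median neither cyclin passed (Ccne1 -0.66, adjusted p = 0.0617; Ccnd3 -1.29, adjusted p = 0.104). Bysl, which shares exon bases with Ccnd3, was 2.02 lower in mating 2 (adjusted p = 0.00189). Ccne2 differed in the opposite direction, 0.94 higher in mating 2 (-0.06 to 1.95), without passing the test (adjusted p = 0.176). Ccna2 and Ccnb1 differed by 0.11 and 0.02, with intervals of -0.25 to 0.47 and -0.45 to 0.48.

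The HET1 litters, with 22.0% of all genes called, also differed in the markers of the stage. Of 8 genes typical of the two-cell stage, 6 were higher in mating 2, among them Tcstv1, Tcstv3 and Zfp352 by 4.23, 2.70 and 2.24, and of 7 oocyte-deposited genes 2, Oosp1 and Ooep, were higher by 2.70 and 1.51. The summed level of the former list was 333 to 952 RPM in mating 1 and 567 to 1765 RPM in mating 2, and of the latter 1525 to 2957 and 2215 to 5573 RPM. The part of these differences in the cyclin values was not tested.

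Between the litters of cKO x HET, 0 of 8 cyclins were called, beside 6.44% of all genes, with 0 at an unadjusted p under 0.05 and 0 called by voom. There 5 of the 8 two-cell genes were lower in mating 2. The largest cyclin difference was that of Ccnb2, 1.04 higher in mating 2 (-0.09 to 2.17, adjusted p = 0.260). Between the WT litters 0 of 8 were called, beside 1.79% of all genes (0.36% without WT embryo 11), with 3 at an unadjusted p under 0.05 (14.7% of all genes) and 1, Ccnd2, called by voom. Ccne2 was 1.71 lower in mating 2 (adjusted p = 0.110), with 0, 34, 137 and 163 reads in its 4 embryos, and 0.76 lower without WT embryo 11 (adjusted p = 0.877). Ints8 had a difference of -1.75 between the same litters, or -0.80 without that embryo, and was not called in either case. Ccnd2 was 0.89 higher (adjusted p = 0.0800) and 0.12 higher without that embryo, while without embryo 13 or 14 it was 1.18 higher and passed (adjusted p = 0.0172 and 0.0133), as did Ccne2 without embryo 13 (-2.12, adjusted p = 0.0487). Ccnb1 was 0.55 lower (adjusted p = 0.312) and 0.21 lower without embryo 11.

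**Figure D5:**
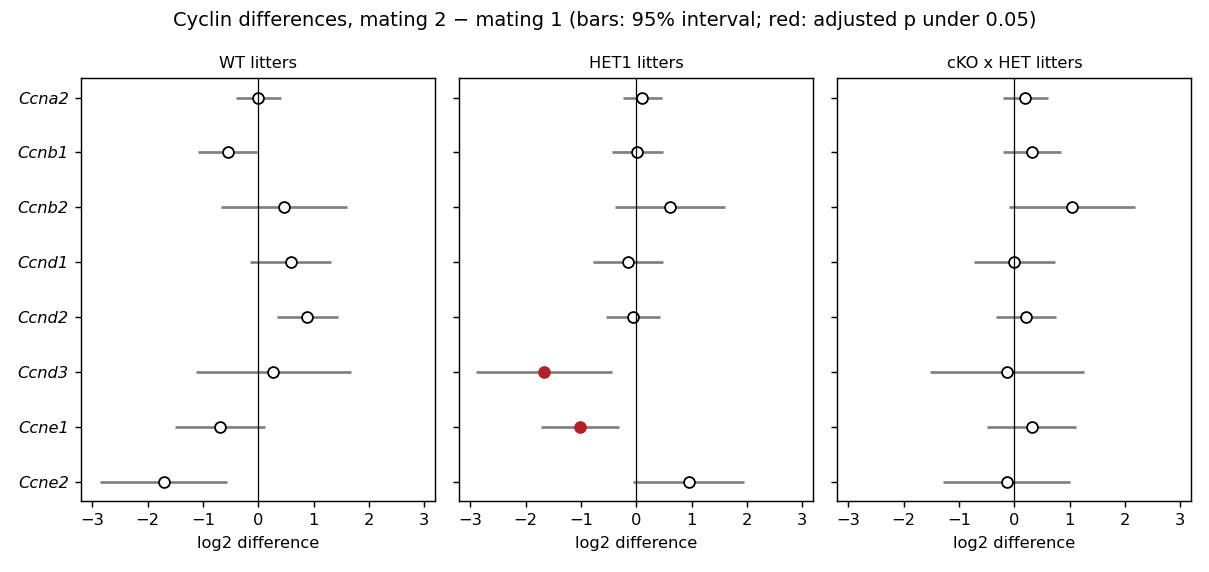
Log2 difference, mating 2 minus mating 1 (horizontal axis), of the 8 tested cyclins in the WT, HET1 and cKO x HET litters, with 95% intervals and red points where the adjusted p was under 0.05. Ccne1 and Ccnd3 are red, in the HET1 litters alone.

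Genes that work with the cyclins were followed as lists. Over 5 lists 9 genes were called in HET1 against WT, beside 6.51% of all genes. Without WT embryo 11 all 9 were still called, and E2f4 was called as well (adjusted p = 0.0355). None of the 9 calls held with litter as a random effect (adjusted p 0.284 to 0.675), with litter means as replicates (0.999), with log2 depth as a covariate (0.167 to 0.516) or without HET1 mating 2 (0.0693 to 0.826), and 3 held without WT mating 1. With voom 6 of the 9 held. In each of 5 other fits 8 held: without the floor, with all probes of a mean of at least 0, after re-centring, with mating number as a block and with only the groups compared. Marker genes differed in the same comparison. Of the 8 two-cell genes 2 were called, Tcstv1 (2.34 higher) and Sp110 (0.75 higher), with a list median of 0.78. Of the 7 oocyte-deposited genes 3 were called higher, Ooep, Zp3 and Dppa3, with a median of 1.14. Without WT embryo 11 Zp3 was not called (adjusted p = 0.0697), whereas Gdf9 and Oosp1 were (0.0217 and 0.0485). The summed level ran from 333 to 1765 RPM in HET1 and 208 to 859 RPM in WT for the former list, and from 1525 to 5573 and 1527 to 3996 RPM for the latter. The oviduct gene Ovgp1 was 2.18 lower in HET1, where every embryo was at the floor, and 0.70 lower without WT mating 2. The 6 marker calls made with all embryos were also lost with litter as a random effect, with litter means, with log2 depth as a covariate and without HET1 mating 2. The part of these differences in the list calls was not tested. Of 16 other cyclins, Ccnh, the partner of Cdk7 in the kinase that activates Cdks, was 1.64 lower in HET1 than in WT (adjusted p = 0.0467) and the other 15 were not called. Of 11 Cdks and their activators, 3 were called in HET1 against WT: Cks1b and Cks2, small subunits bound by Cdks, were 1.21 and 1.02 higher (adjusted p = 0.00784 and 0.0156), and Mnat1, which assembles Cdk7 with Ccnh, was 1.35 lower (adjusted p = 0.0178). The median of this list was 0.20 beside 0.10 over all genes. Of 10 Cdk inhibitors and inhibitory kinases, 8 were tested and 2 were called, Cdkn1a (p21), 1.45 higher, and Cdkn2d (p19), 1.43 higher (adjusted p = 0.0173 and 0.0241).

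Of 25 genes of the ubiquitin ligases that destroy cyclins, 2 were called in HET1 against WT. Ube2s, which extends ubiquitin chains for the anaphase-promoting complex, was 1.98 higher (adjusted p = 0.00156), and Cdc27, a subunit of that complex, was 0.71 lower (adjusted p = 0.0236). Of 17 genes of the Rb and E2F group, 16 were tested and Mybl2, a factor of the complex that binds CHR elements, was 1.31 higher (adjusted p = 0.0143). In HOM against WT, where 0.0450% of all genes were called, Cdkn1a was the only gene called over the 5 lists. It was at 6.07 ± 0.89 log2 RPM (SD, n = 10) in HOM and 3.96 ± 1.20 (n = 14) in WT, a difference of 2.10 (SE 0.44, adjusted p = 0.0355). This call was lost with litter as a random effect (adjusted p = 0.865), with log2 depth as a covariate (0.425), with litter means as replicates (1.00) and with all probes of a mean of at least 0 (0.064). It was also lost without mating 2 of WT (adjusted p = 0.133), without mating 2 of cKO x HET (0.437) and without WT embryo 11 alone (0.0612). In HET2 against WT and in HOM against HET2 littermates, 0 genes of the 5 lists were called, beside 0.0375% and 0.0150% of all genes. The most abundant member of each list in these 2 comparisons had differences of -0.20 and 0.08 (Ccnl2), 0.91 and -0.19 (Cks2), 1.38 and -0.02 (Wee2), 0.65 and -0.15 (Cul1) and 0.68 and -0.36 (E2f5), none called.

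Between the HET1 litters, where Ccne1 and Ccnd3 were lower in mating 2, 6 of 11 Cdks and activators were called, beside 22.0% of all genes (864 higher and 2073 lower of 13338). Cks1b and Cks2 were 1.99 and 1.43 higher in mating 2, and Mnat1, Cdk4, Cdk7 and Cdc25c were lower, Mnat1 by 1.76. Of the 8 inhibitors and inhibitory kinases tested 2 were called, with Wee2, the oocyte kinase that holds Cdk1 inactive, 2.52 higher (adjusted p = 2.01e-06). Of the 16 genes of the Rb and E2F group tested 1 was called, E2f5, 2.31 higher. In the ligase list 4 of 25 were higher and 2 lower, with Skp1a and Cul1 higher by 1.67 and 1.18 and Anapc7 lower, at 4.64 against 6.94 log2 RPM. Of the 16 other cyclins 1 was called, Ccnk, 1.11 higher. Between the cKO x HET litters, where 6.44% of all genes were called, Wee2, E2f5 and Cul1 were called in the other direction, lower in mating 2 by 2.49, 1.52 and 1.24, and Cdk4, Mnat1, Cdk7 and Ccnh were higher there by 2.35, 1.57, 1.54 and 2.38. These were 3 of 11 Cdks and activators, 1 of 16 other cyclins, 1 of 8 inhibitors, 1 of 25 ligase genes and 1 of 16 of the Rb and E2F group. Between the WT litters, with 1.79% of all genes called, Ccnj alone of the 5 lists was called, 1.80 higher in mating 2 (adjusted p = 0.0176), and it was not called without WT embryo 11 (1.46, adjusted p = 0.253).

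Across the 44 embryos, Ccnb1, Ccne1 and Cdk1 had similar profiles. The correlation of Ccnb1 with Ccne1 was 0.72 (Spearman 0.75), of Ccnb1 with Cdk1 0.75 and of Ccne1 with Cdk1 0.74, and with each litter centred on its mean these were 0.75, 0.74 and 0.66. Without WT embryo 11 they were 0.67, 0.70 and 0.70, and the correlation of Ccnd3 with Ccne1, 0.57 over all embryos, was then 0.67 as well. Ccna2 correlated with Ccnb1 at 0.50 and with Ccne1 at 0.36. Ccne2 had negative correlations with Ccnd3, at -0.60 (-0.56 within litters), and with Ccnb2, at -0.42, which were -0.64 and -0.38 without WT embryo 11. Its correlations with Ccnb1 and Cdk1 were weaker with that embryo, at -0.05 and -0.17 with it and -0.45 and -0.47 without it. By Spearman they were -0.39 and -0.41 with it and -0.49 and -0.51 without it. These correlations describe 44 libraries that share depth and litter, and Ccnb1 and Ccne1 themselves correlated with log2 depth at -0.36 and -0.31.

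The genes most like each cyclin, among 7569 other genes with a mean of at least 3 log2 RPM, were Rtf2 and the tubulin gene Tubb4b for Ccne1 (Pearson 0.95 and 0.94, Spearman 0.95 and 0.93) and Ilf2 and the mitochondrial ATP synthase gene Atp5b for Ccnb1 (0.84 and 0.84, Spearman 0.78 and 0.85). For Ccnd3 they were Polr2e, a subunit of RNA polymerases, and Dnajb12 (0.72 and 0.70, Spearman 0.72 and 0.74), and for Ccnb2 Arf1 and Csnk1g2 (0.65 and 0.62, Spearman 0.69 and 0.67). For Ccne2 they were Ints8 and Ppp4r3b (0.77 and 0.74, Spearman 0.70 and 0.65). Ccna2 had the weakest matches, Bptf and Fam166a, at 0.55 and 0.54 (Spearman 0.61 and 0.56), on a range of 1.07 log2 units between its lowest and highest embryo.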

How the data were processed

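Single two-cell embryos were sequenced with Smart-seq2. The authors trimmed reads with Trim Galore 0.6.5 (cutadapt 2.3), mapped them to GRCm38 with HISAT2 2.1.0, kept a mapping quality of at least 20 and quantified genes without strand in SeqMonk. The deposited values are log2 RPM per gene and embryo. In them a gene without reads has the value of 0.9 read, and 99.9992% of values corresponded to whole reads within 0.05 read. From these, values were raised to the highest value of a gene without reads in any embryo (1.86 log2 RPM), genes above it in at least 5 embryos were kept (13338), and limma 3.58.1 (R 4.3.3, trend) was fitted with the 4 groups as terms, or with 6 litters and a term for HOM within cKO x HET litters. Adjusted p-values are Benjamini-Hochberg over all genes tested, with a threshold of 0.05, and all tests were two-sided. The fit was tested on simulated data without litter differences, with 200 genes changed by 3 on the log2 scale. It called 68% of them in HET1, 60% in HET2 and 63.5% in HOM against WT, so changes of this size can be missed. Depth was 247667 to 3163026 reads, and it limits what can be said of transcripts with few reads.

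Exon lengths came from GENCODE vM21, whose coordinates for the 9 genes equal those of the files. Promoters came from RefSeq. Members and lists were chosen with earlier results of these data known. Named genes were the cyclins, Dppa2 and Dppa4, up to 3 called genes with the smallest adjusted p per list and comparison (the most abundant where 0 were called), and the 2 genes most correlated with each cyclin of at least 3 log2 RPM. Genes beyond this rule (Ints8, Bysl, Exosc9, LTO1, Ovgp1 and others named in the text) were chosen after their values were seen. Alternatives changed the floor, filter, centring, depth term, weights, litter term, test and embryos.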

Additional observations from a re-analysis of the deposited data

Results flagged for a closer look

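Among 61 sets of embryos of 1 cyclin (HET2, HOM, or a litter of 4 to 10 embryos with values that varied), 8 held an embryo far from its nearest neighbour by Dixon's test. Chance flags about 1 in 20 sets of freely varying values. This rate does not hold where all other embryos sit on the floor, since any embryo above it is then flagged. WT embryo 11 was behind 2 of the 8 flags: among the 4 embryos of WT mating 2 its Ccnd2 was highest, at 5.04 log2 RPM (35 reads), against 1.86 to 2.23 in the others, and its Ccne2 was lowest, at the floor of 1.86 (0 reads), against 5.33 to 5.97. HOM embryo 1 had the lowest Ccnb2 of the 10 HOM embryos, 2.52 log2 RPM (14 reads), against 4.82 to 6.36.

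The remaining 5 rested on 3 to 7 reads in libraries whose neighbours were mostly at the floor. For Ccnd1 these were WT embryo 2 at 3.46 (7 reads) in WT mating 1 and HET1 embryo 6 at 2.91 (5 reads) in HET1 mating 1. For Ccnd2 they were HET1 embryo 1 at 2.28 (6 reads) and HET2 embryo 3 at 2.10 log2 RPM (3 reads), the latter both among HET2 embryos and in its litter.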

How the results depend on the processing

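Of 119 counts of called cyclins recomputed under an alternative, 109 stayed within 1.5 times the reported count, and none of the 10 that moved concerned a comparison of groups. Between the WT litters the count rose from 0 to 1 (Ccnd2) without the floor, after re-centring each embryo on its median and with voom, where 2.03%, 3.05% and 5.08% of all genes were called, against 1.79%. Leaving out 1 embryo of WT mating 2 at a time, a choice made after seeing the data, gave 0 to 2 called cyclins: 0 without WT embryo 11 (0.36% of all genes called), 2 (Ccne2 and Ccnd2) without embryo 13 (3.06%), and 1 (Ccnd2) without embryo 14 (4.12%). Between the HET1 litters the count fell from 2 to 1 (Ccne1) without the floor and with array weights, and to 0 with all probes of a mean of at least 0, after re-centring and with voom, although both differences stayed negative. Of all genes, 18.4%, 21.1%, 16.7%, 20.6% and 16.5% were called under these settings in turn, against 22.0%. With all probes, 1 of the alternatives that ended the calls, the adjusted p-values were 0.0503 for Ccne1 and 0.0558 for Ccnd3, within ranges over all alternatives of 0.0177 to 0.0617 and 0.0246 to 0.168.

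Of 56 differences of single cyclins, 34 were smaller than their SE and are not followed further. For the other 22, 11 of 352 recomputed values changed sign, none of them called. Ccnd2 in HET1 against WT became 0.71 without the floor, 0.74 with voom and 0.028 without WT mating 2. Ccnb1 became -0.013 (HET1 against WT) and -0.034 (HOM against WT) after re-centring, -0.039 (HET1) with depth as a covariate and -0.090 (HOM) without cKO x HET mating 2. Without that litter Ccnb2 in HOM against WT became -0.49, and Ccnd3 in HOM against HET2 became -0.35. Leaving out 1 HET2 embryo at a time, the latter ran from -0.35 to 1.13. Ccne2 in HOM against WT became 0.65 without WT mating 1.

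The mating number served as a replicate block in an alternative fit, and 0 cyclins were called with it in HET1, HET2 or HOM against WT. Ccne1 in HOM against WT was 1.01 higher there (adjusted p = 0.0863), and over all its alternatives the adjusted p ran from 0.0863 to 1.00 with differences of 0.27 to 1.29. The matings of different crosses share only a number: the difference between mating 2 and mating 1 correlated across 13338 genes at 0.40 (WT with HET1), -0.38 (WT with cKO x HET) and -0.72 (HET1 with cKO x HET). Depth limits Ccnd1, Ccnd2 and Ccna1 most, at a median of 1, 0 and 0 reads per embryo.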
